A study of Mus musculus with 6 samples.

Results

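Caveolins and cavins, the coat proteins of caveolae, were followed through a long-term epithelial-mesenchymal transition (EMT) in mouse mammary tumor cells. The members were taken by name, although earlier results of these data were known when they were chosen. They were Cav1, Cav2 and Cav3 for the caveolins, and Cavin1, Cavin2, Cavin3 and Cavin4 for the cavins. Each of these 7 genes had 1 probe set that carried its symbol alone, among 18820 genes with a probe set of their own on the array. EpRas is an established line of EpH4 mammary epithelial cells, of BALB/c background, that stably overexpresses the Ha-Ras oncogene. Both groups carry that oncogene, so that the control is a transformed epithelial line and not normal epithelium. The control group was 3 samples of EpRas cells left untreated for 14 days. The long-term EMT group was 3 samples of EpRas cells kept for 14 days with 2 ng/ml of TGF-β1, the growth factor that drives the transition. RNA from each sample was read on 1 Affymetrix MoGene-1_1-st-v1 array, and the values are log2 RMA values, where a step of 1 is a 2-fold difference in hybridisation signal.

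Caveolae are small flask-shaped pits of the plasma membrane, rich in cholesterol and sphingolipids, that buffer membrane tension, take up cargo and hold signalling receptors. Caveolins are inserted in the inner leaflet as oligomers that bind cholesterol, and cavins assemble on them from the cytosol into an outer coat. Caveolin-1 and caveolin-2 are found in epithelial, endothelial, fat and connective tissue cells, whereas caveolin-3 and cavin-4 are the muscle forms. In the mammary gland, caveolin-1 is known as a restraint on epithelial growth, and caveolin-rich membrane is 1 of the routes by which TGF-β receptors are internalised and degraded.

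The groups were compared with limma on all 35556 probe sets, and "rose" and "fell" are kept for genes that moved more than 1.5-fold at an adjusted p below 0.05. Of the 7 members, 1 fell (Cav1), 1 rose (Cavin4) and 5 did not pass. Over all 18820 genes, 1.49% fell and 1.47% rose. In 4 members (Cav1, Cav2, Cavin1 and Cavin2) every long-term EMT array lay below every control array, as was the case for 11.5% of all genes. In 1 member, Cavin4, every long-term EMT array lay above every control array, as was the case for 12.6% of all genes. The groups overlapped in Cav3 and Cavin3. The median log2 fold change was -0.43 over the 7 members and -0.51 over the 6 that lay above background, beside 0.02 over all genes. Background was set at 4.48, the 95th percentile of the mean values of 1006 probe sets for olfactory receptors, and 13418 genes lay above it. Of these 13418 genes, 1968 had every long-term EMT array below every control and 1958 had every long-term EMT array above. The samples were triplicates, and nothing states that they were separate cultures, so that the p-values measure a spread that may be technical. Fewer cells of a kind and less RNA per cell cannot be told apart in such bulk samples.

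**Figure D1:**
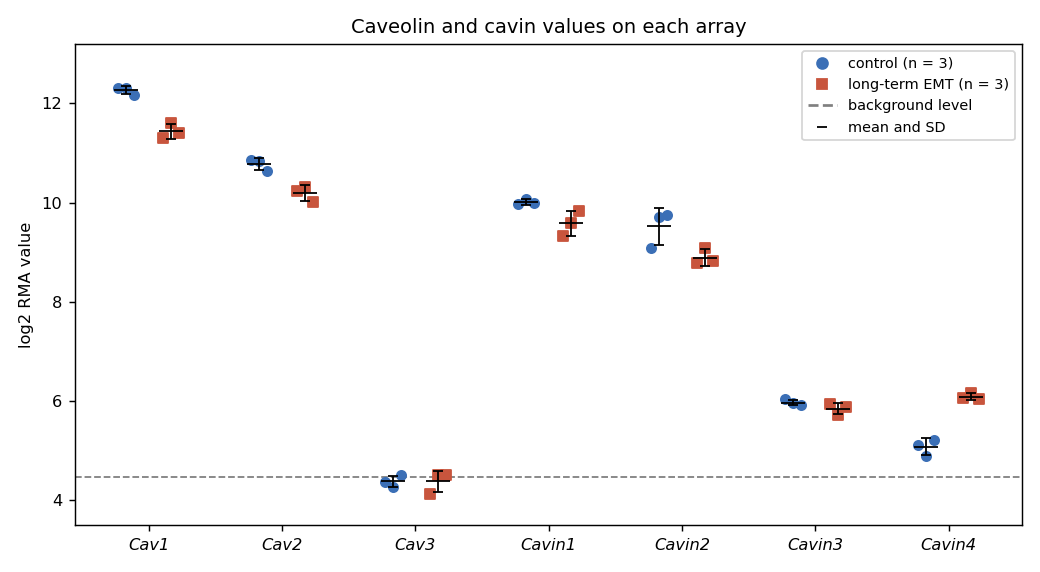
Log2 RMA value (y axis) of each caveolin and cavin (x axis) on the 3 control arrays (circles) and the 3 long-term EMT arrays (squares), with the mean and SD in black and the background level of 4.48 as a dashed line. The long-term EMT arrays lie below the control arrays for Cav1, Cav2, Cavin1 and Cavin2 and above them for Cavin4, and Cav3 lies at background in both groups.

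Before the single members, 1 array needs mention. Control array 1 stood apart from its group, with correlations of 0.984 to 0.987 with the other controls over all probe sets, whereas controls 2 and 3 correlated at 0.995 and the long-term EMT arrays at 0.993 to 0.996 with each other. Values without it are given where leaving it out changed the call of a named gene or turned or clearly moved its value. The 12 epithelial markers examined all had a mean above background, and 6 of them fell, as did Cldn4 without control array 1 (log2 fold change -1.39, limma adjusted p = 0.0381, against -1.76 and 0.0727 with it). Among the 6, Cdh1, which encodes E-cadherin, went from a mean of 9.57 to 4.48, at the background level. The keratin genes Krt8 and Krt18 had means of 12.79 and 12.56 in control cells and of 12.79 and 12.57 in long-term EMT cells.

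Cav1, which encodes the caveolin that most non-muscle cells need to form caveolae, fell. Its values were 12.32, 12.32 and 12.18 on the control arrays and 11.30, 11.61 and 11.40 on the long-term EMT arrays. All long-term EMT arrays were lower than all controls, and the space between the groups, 0.57, was wider than the range within either. The mean went from 12.27 ± 0.08 to 11.44 ± 0.16 (SD, n = 3 each), a log2 fold change of -0.84 (SE 0.10, 95% interval -1.09 to -0.58, limma adjusted p = 0.0164). The signal in long-term EMT cells was thus 56.0% of that in control cells, 1.79-fold lower. Cav1 remained well above background in both groups. Among genes above background, 4.36% had a lower log2 fold change than Cav1.

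Cav2 encodes the partner that joins caveolin-1 in hetero-oligomers and depends on it to reach the cell surface. Its control values were 10.87, 10.83 and 10.64, and its long-term EMT values were 10.23, 10.32 and 10.01. Here too the groups did not overlap, with a space of 0.32 between them. The log2 fold change was -0.59 (SE 0.11, 95% interval -0.87 to -0.32), which is 1.51-fold lower, with a limma adjusted p of 0.0626, so that Cav2 did not pass. Cav3, the caveolin of skeletal and heart muscle, read 4.37, 4.27 and 4.50 in control cells and 4.13, 4.51 and 4.50 in long-term EMT cells. The groups overlapped, both means were 4.38, below the background level, and no fold is given.

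Cav2 and Cav1 are neighbours on chromosome 6, and 1 RefSeq transcription start of Cav2 and 2 of Cav1 have a promoter window in the reference table, all on the plus strand. The windows are shown because these caveolin genes sit side by side and were both lower on every long-term EMT array, together with the window of Cavin4, the gene that rose. They are from RefSeq (GRCm38.p6) and run from 250 bases before to 50 bases after a start: Cav2 at chr6:17280935-17281234, Cav1 start 1 at chr6:17306085-17306384, Cav1 start 2 at chr6:17307390-17307689 and Cavin4 at chr4:48663264-48663563, plus strand. Capitals mark CACCTG, an E-box that repressors of epithelial genes of the Zeb and Snail families can bind, and CAGAC, the short element that Smad proteins can bind, each on either strand (CAGGTG and GTCTG).
Cav2: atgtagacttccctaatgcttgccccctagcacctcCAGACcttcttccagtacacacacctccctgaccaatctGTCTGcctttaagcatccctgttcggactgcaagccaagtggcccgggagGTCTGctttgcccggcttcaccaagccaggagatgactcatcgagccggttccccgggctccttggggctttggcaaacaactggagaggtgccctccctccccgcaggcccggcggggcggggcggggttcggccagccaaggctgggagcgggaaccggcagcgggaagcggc
Cav1 start 1: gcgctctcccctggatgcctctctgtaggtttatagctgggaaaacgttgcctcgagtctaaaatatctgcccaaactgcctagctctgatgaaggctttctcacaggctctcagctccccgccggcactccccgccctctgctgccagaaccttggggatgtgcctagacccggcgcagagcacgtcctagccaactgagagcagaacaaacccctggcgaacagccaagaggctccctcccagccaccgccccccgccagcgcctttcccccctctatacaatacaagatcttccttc
Cav1 start 2: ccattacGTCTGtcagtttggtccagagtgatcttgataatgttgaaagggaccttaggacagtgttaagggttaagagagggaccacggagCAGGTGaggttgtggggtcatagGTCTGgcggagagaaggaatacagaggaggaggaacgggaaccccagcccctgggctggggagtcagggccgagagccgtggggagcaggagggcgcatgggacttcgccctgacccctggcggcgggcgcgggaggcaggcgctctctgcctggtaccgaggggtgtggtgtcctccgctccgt
Cavin4: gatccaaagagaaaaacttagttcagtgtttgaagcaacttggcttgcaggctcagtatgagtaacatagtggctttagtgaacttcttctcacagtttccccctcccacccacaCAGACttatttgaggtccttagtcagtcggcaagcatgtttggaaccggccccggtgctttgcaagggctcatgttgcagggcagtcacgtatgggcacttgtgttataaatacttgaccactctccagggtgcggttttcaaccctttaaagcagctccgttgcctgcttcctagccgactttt

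The window of Cav1 start 2 held 1 CACCTG and 2 CAGAC, that of Cav2 held 3 CAGAC, that of Cavin4 held 1 CAGAC, and that of Cav1 start 1 held neither. Windows with CACCTG made up 20.2% of the 32851 in the table, and windows with CAGAC made up 49.6%. The GC box GGGCGG (35.7% of all windows) was found 2 times each at Cav1 start 1 and Cav2 and 1 time in each of the 2 overlapping windows of Cavin1. The general E-box CANNTG (72.3% of all windows), which includes CACCTG, was found 2 times each for Cav2 and Cav3 and 1 time each for Cavin4 and both starts of Cav1. None of the 8 windows, which belong to 6 of the 7 members, held a CArG box, the element of serum response factor in muscle genes, which 1.63% of all windows held. GC content ran from 43.3% for Cavin2 to 67.0% for Cavin1, with a median of 52.7% over all windows. A match of letters is a description of the window and not a bound site.

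Cavin1 encodes the cavin without which caveolae do not form. It read 9.97, 10.08 and 9.99 on the control arrays and 9.33, 9.58 and 9.83 on the long-term EMT arrays. The controls were tight, the long-term EMT arrays were spread over 0.50, and the highest of them came within 0.14 of the lowest control. The log2 fold change was -0.43 (SE 0.14, 95% interval -0.76 to -0.11, limma adjusted p = 0.223), and Cavin1 did not pass.

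Cavin2 encodes a cavin that shapes the curved membrane and binds phosphatidylserine. Control values were 9.09, 9.72 and 9.75, and long-term EMT values were 8.78, 9.08 and 8.82. Control array 1 was 0.65 below the mean of the other controls and only 0.01 above the highest long-term EMT array. With all arrays the log2 fold change was -0.63 (SE 0.20, 95% interval -1.10 to -0.15, limma adjusted p = 0.229), and Cavin2 did not pass. Without control array 1 it was -0.84 with a limma adjusted p of 0.0249, past both thresholds.

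Cavin3, whose product links caveolae to the cytoskeleton and binds protein kinase C delta, read 6.03, 5.95 and 5.92 in control cells and 5.94, 5.72 and 5.87 in long-term EMT cells. The groups overlapped, and the log2 fold change of -0.12 (SE 0.09, 95% interval -0.34 to 0.09, limma adjusted p = 0.649) did not pass. The interval leaves room for a level between 0.793 and 1.06 times that of control cells.

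Cavin4, which encodes the cavin of skeletal and heart muscle, rose. Control values were 5.12, 4.89 and 5.22, close above background, and long-term EMT values were 6.05, 6.17 and 6.04. Every long-term EMT array was at least 0.82 above every control. The mean went from 5.08 ± 0.17 to 6.09 ± 0.07 (SD, n = 3 each), a log2 fold change of 1.01 (SE 0.11, 95% interval 0.75 to 1.27, limma adjusted p = 0.00965), which is 2.01-fold higher. Among genes above background, 1.70% had a higher log2 fold change than Cavin4.

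**Figure D2:**
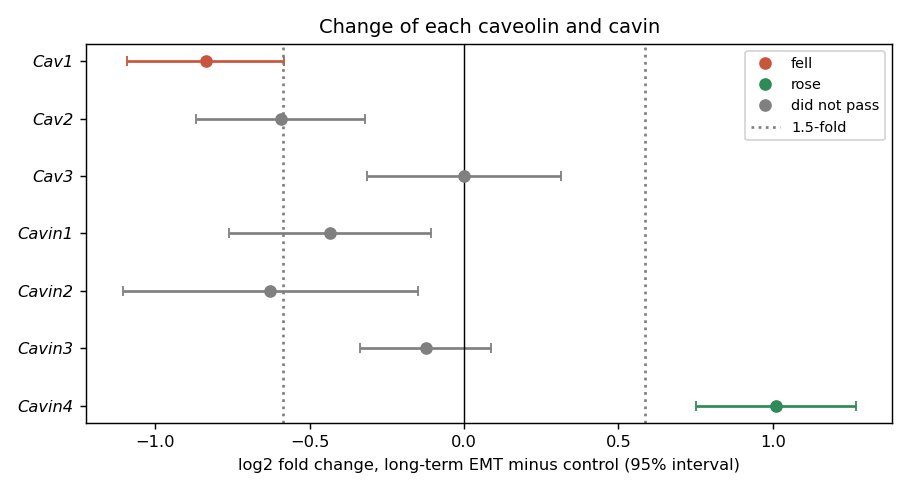
Log2 fold change, long-term EMT minus control (x axis), with its 95% interval for each of the 7 genes (y axis), from limma on 3 against 3 arrays, with dotted lines at 1.5-fold in either direction. The intervals of Cav1, Cav2, Cavin1 and Cavin2 lie below 0 and that of Cavin4 above it, whereas only Cav1 and Cavin4 passed the adjusted test and the fold.

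The calls of Cav1 and Cavin4 did not hold in every fit with 1 array left out, although their direction did. With all arrays 330 probe sets fell and 353 rose. These counts were 113 and 135 without long-term EMT array 3, and 115 and 109 without control array 2. Without control array 1 they were higher, at 482 and 472. A call lost in a fit with fewer arrays thus does not by itself show that 1 array drove the value. With 1 array left out at a time, the log2 fold change of Cav1 ran from -0.92 to -0.77, and its limma adjusted p rose to 0.0925 without control array 2, to 0.0616 without long-term EMT array 1 and to 0.0853 without long-term EMT array 3. That of Cavin4 ran from 0.92 to 1.08, with a limma adjusted p of 0.0635 without long-term EMT array 2 and 0.0536 without long-term EMT array 3. Cav2 did not pass in any of the 6 fits, with values from -0.66 to -0.51, and Cavin1 ran from -0.56 to -0.31 and Cavin3 from -0.17 to -0.06, also without passing.

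**Figure D3:**
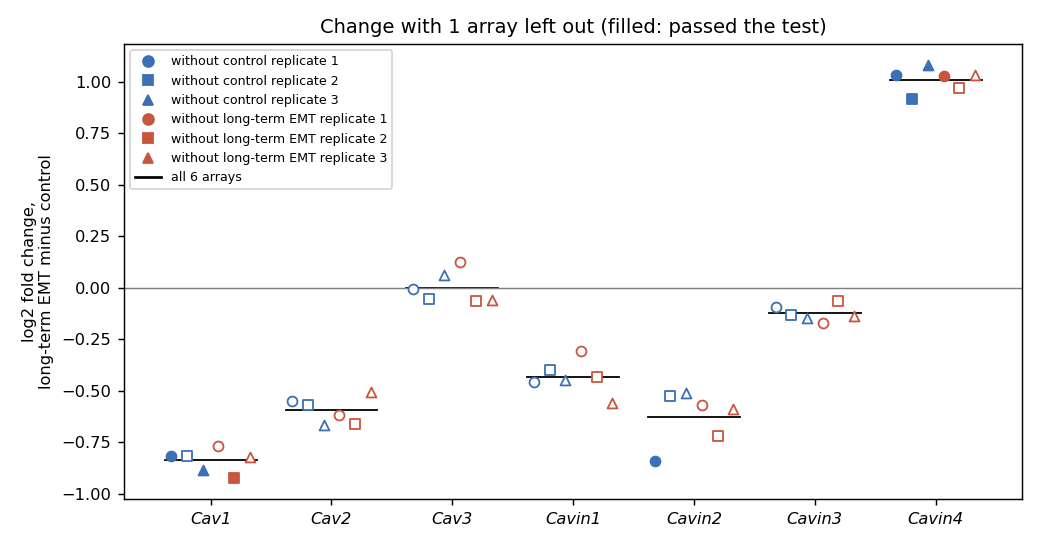
Log2 fold change (y axis) of each caveolin and cavin (x axis) with 1 array left out, where the marker shape and color name the array, filled markers passed the test and black lines are the values with all 6 arrays. Cavin2 passed only in the fit without control array 1, Cav1 in 3 of 6 fits and Cavin4 in 4 of 6 fits.

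Whether the members that lay lower in long-term EMT cells changed to the same extent was examined by the log2 difference between a pair of genes on each array. The 6 pairs among Cav1, Cav2, Cavin1 and Cavin2 were taken. These genes were chosen by their values in these data, and Cavin3 and Cavin4, also above background, were left out. Cav1 minus Cav2 was 1.45, 1.49 and 1.54 on control arrays and 1.07, 1.29 and 1.39 on long-term EMT arrays. Cav1 minus Cavin1 was 2.35, 2.24 and 2.19 on control arrays and 1.97, 2.03 and 1.57 on long-term EMT arrays. In both pairs the groups did not overlap, and the difference was smaller in long-term EMT cells by 0.24 for Cav2 and by 0.40 for Cavin1. The exact two-sided permutation p was 0.1 for each, the smallest that 3 against 3 arrays allow, and 0.3 after Benjamini-Hochberg adjustment over the 6 pairs. The groups overlapped in the other 4 pairs, with exact p-values from 0.5 to 0.9. Since this test cannot reach 0.05 with 3 against 3 arrays, it does not settle whether these members changed unequally.

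The neighbours of the members on the chromosome, by the order of protein-coding genes in RefSeq (GRCm38.p6), gave a mixed picture. In the order Tes, Cav2, Cav1, Met, the genes on the outer flanks differed from each other. Tes, which encodes a focal adhesion protein, read 10.85, 10.38 and 10.22 in control cells and 11.33, 11.05 and 10.88 in long-term EMT cells. These groups lay apart with the long-term EMT arrays on the higher side, opposite to Cav2 beside it, with a log2 fold change of 0.60 (SE 0.19, limma adjusted p = 0.240) that did not pass. Met, the receptor of hepatocyte growth factor, read 10.17, 10.20 and 10.23 against 9.88, 9.87 and 9.93. It was lower on every long-term EMT array by a small margin, at 80.9% of control (log2 fold change -0.31, SE 0.07, limma adjusted p = 0.101), and did not pass.

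Cavin4 lies between Tmeff1 and Plppr1 on chromosome 4. Tmeff1, which encodes a transmembrane protein with follistatin-like domains, rose from 8.92, 9.0 and 9.07 to 11.00, 11.12 and 11.10. That is 4.22-fold higher (log2 fold change 2.08, SE 0.08, limma adjusted p = 0.000806), and the long-term EMT arrays stood far above the controls, as for Cavin4 at a smaller size. Whether the Cavin4 probe set picks up transcripts that begin at Tmeff1 was not tested. Plppr1, on the other side, lay below background in both groups. Beside Cavin2, Nabp1, which encodes a single-stranded DNA binding protein, rose (log2 fold change 0.84, SE 0.14, limma adjusted p = 0.0401), opposite in direction to Cavin2, and Tmeff2, on its other side, was below background in both groups. The neighbours of Cavin1 did not pass, with Atp6v0a1 at -0.49 and Stat3 at -0.35, the latter at -0.07 without control array 1. Nor did those of Cavin3 (Cckbr at 0.06 and Smpd1 at -0.19) or, for Cav3, Ssu2 at 0.09, while Oxtr was below background in both groups.

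**Figure D4:**
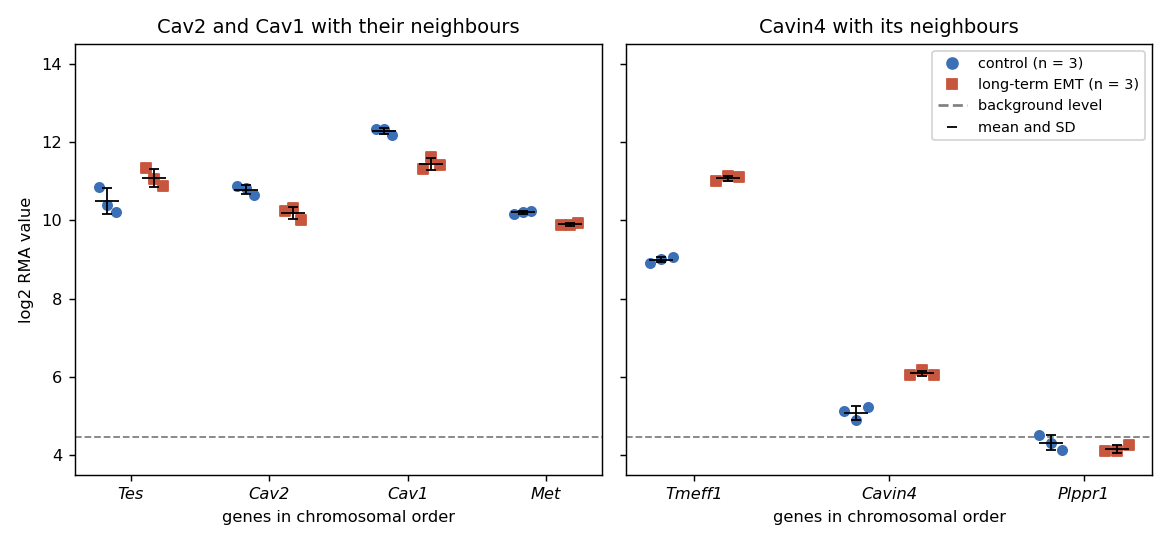
Log2 RMA values (y axis) of the genes in chromosomal order (x axis) around Cav2 and Cav1 (left) and around Cavin4 (right) on the 3 control arrays (circles) and 3 long-term EMT arrays (squares), with mean and SD in black and the background level as a dashed line. Cav2 and Cav1 are lower in long-term EMT cells between Tes, which is higher, and Met, and Cavin4 is higher beside Tmeff1, which is higher too.

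Genes that work with caveolae were read in 7 lists of 107 distinct genes, of which 100 had a probe set of their own. Of these, 1 rose and 9 fell, beside 1.47% and 1.49% of all genes. Without control array 1, 0 rose and 11 fell. Over all probe sets, 472 then rose and 482 fell, against 353 and 330 with all arrays. The median log2 fold change of the 100 genes was -0.00333, beside 0.02 over all genes. The list closest to the coat holds the proteins of the caveola neck and its anchors. Of its 13 measured genes, 1 fell and none rose, with a median of -0.01. The gene that fell was Ehd2, the ATPase that rings the neck and holds caveolae at the surface, with 11.31, 11.37 and 11.32 in control cells and 10.56, 10.79 and 10.76 in long-term EMT cells. The groups lay well apart (log2 fold change -0.63, SE 0.09, limma adjusted p = 0.0246), but the call held in only 1 of the 6 fits with 1 array left out. The other EHD genes did not pass, with Ehd1 at -0.01, Ehd4 at -0.25 and Ehd3 below background. Pacsin2, a membrane-bending protein of the caveola neck, was at -0.16 and did not pass either. At the extremes of the list, Ror1, a receptor kinase that scaffolds cavin-1 and caveolin-1, was at -1.59 (limma adjusted p = 0.227), with control array 1 at 8.30 and the other controls at 6.60 and 6.35. Without control array 1 Ror1 was at -0.98 and passed (adjusted p = 0.0331). The highest of the list was Flna, the actin crosslinker that binds caveolin-1, at 0.29 (adjusted p = 0.252).

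Other scaffolds of lipid rafts, which do not build caveolae, gave 2 falls among 13 measured genes and a median of -0.05. These were Mal and Mal2, which encode proteolipids of apical transport in polarised epithelium. Mal had a log2 fold change of -4.21 (limma adjusted p = 0.00144). Mal2 went from a mean of 9.46 to 3.97, below background (log2 fold change -5.49, limma adjusted p = 0.00702). By that control mean, it was at least 31.6-fold lower when set against the background level. The mean includes control array 1 at 10.71, with the other controls at 9.04 and 8.62. Without control array 1 the log2 fold change of Mal2 was -4.86. The flotillins, which form rafts without caveolins, did not pass, with Flot1 at 0.47 (adjusted p = 0.145), the highest of the list, and Flot2 at 0.01.

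None of 17 measured receptors and enzymes known from caveolae passed, and their median was 0.09. The single lowest and the single highest value of the list rested on control array 1. Nos2, the inducible nitric oxide synthase, was lowest at -1.40 (limma adjusted p = 0.781), with 9.74, 5.55 and 4.32 on the control arrays, and stood at 0.20 without control array 1. Egfr, the receptor of epidermal growth factor, was highest at 0.53 (adjusted p = 0.576), and stood at 0.16 without that array. Pdgfrb, a receptor of platelet-derived growth factor, was at -1.31 with and without control array 1. Its groups lay apart, but it did not pass (adjusted p = 0.126 with all arrays). Of the 17 genes, every long-term EMT array lay below every control in 4 and above in 1. Over all genes the shares were 11.5% and 12.6%. Itgb1, the integrin β1 chain, was at 0.51 with the groups apart (adjusted p = 0.0330) and missed only the fold required. Among 9 kinases, phosphatases and adaptors that act on or bind caveolin-1, 1 rose and 2 fell, with a median of 0.11. Fyn, a Src family kinase that phosphorylates caveolin-1, rose by 0.82 (SE 0.13, limma adjusted p = 0.0330). Ptprf, the receptor phosphatase LAR, changed by -1.83 (adjusted p = 0.00274) and Grb7, an adaptor that binds phosphorylated caveolin-1, by -3.17 (adjusted p = 0.0248). Src itself was at 0.51 (adjusted p = 0.0402), below the fold required. With single arrays left out, the call of Ptprf held in 6 of 6 fits, that of Grb7 in 2 and that of Fyn in 1. Without control array 1, Fyn was at 0.78 (adjusted p = 0.0560) and Grb7 at -2.64 (adjusted p = 0.00238).

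None of 10 measured genes of cholesterol uptake, binding and export passed (median -0.01). Abca1, which exports cholesterol, was at -1.61 (limma adjusted p = 0.0618), and without control array 1 it passed at -1.24 (adjusted p = 0.00407). The highest was Scarb1, the receptor of high-density lipoprotein, at 0.46 (adjusted p = 0.0460, below the fold required). Of 12 genes of TGF-β receptor turnover, 2 fell, with a median of -0.06. They were Tgfbr3, the coreceptor betaglycan, at -1.44 (limma adjusted p = 0.0213), and Dab2, an endocytic adaptor that binds TGF-β receptors, at -0.60 (adjusted p = 0.0364). The call of Tgfbr3 held in 2 and that of Dab2 in 0 of the 6 fits with 1 array left out. Without control array 1, Dab2 was at -0.56 (adjusted p = 0.0593), while Tgfbr1, a signalling receptor of TGF-β, passed at -0.92 (adjusted p = 0.0454, against -1.32 and 0.147 with all arrays). Smurf2, a ubiquitin ligase that marks the receptors for degradation, was the highest at 0.63 (adjusted p = 0.0943).

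The clathrin coat and its adaptors, the other main route of uptake, served as a list to read beside the caveola coat. Of 26 measured genes, 2 fell and none rose, and the median was 0.01 (range -1.98 to 0.34). Epn3, an epsin, was at -1.98 (limma adjusted p = 0.00972) and Cltb, a clathrin light chain, at -0.90 (adjusted p = 0.0231), whereas Itsn2, a scaffold of coated pits, was the highest at 0.34 (adjusted p = 0.197). The call of Epn3 held in 5 and that of Cltb in 1 of the 6 fits with 1 array left out. On counts alone, every long-term EMT array lay below every control in 4 of 7 caveolins and cavins and 5 of 26 clathrin genes. The share over all genes, given above, was 11.5%. Every long-term EMT array lay above every control in 1 of 7 and 4 of 26, against 12.6% of all genes.

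**Figure D5:**
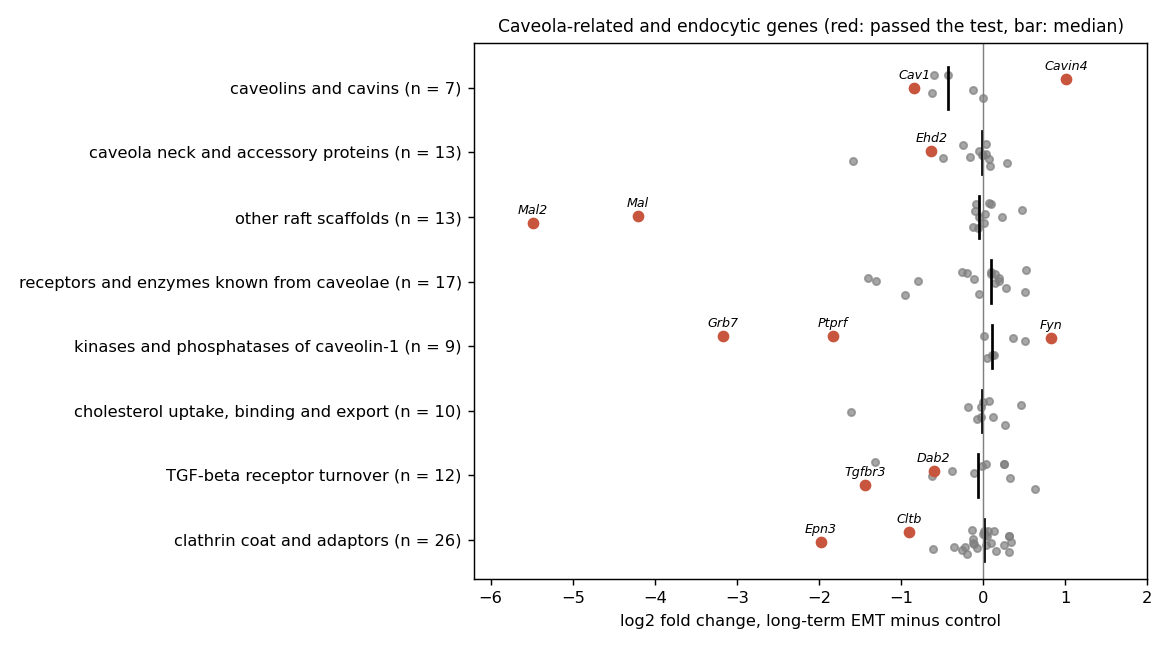
Log2 fold change, long-term EMT minus control (x axis), of each measured gene of the caveolins and cavins and of 7 lists of related genes (y axis), with genes that passed in red and named, and the median of each list as a black bar. The median of the caveolins and cavins is -0.43, whereas those of the other lists lie between -0.06 and 0.11.

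Markers of cell types rich in caveolae were read beside the members, as the sum of their linear signals on each array. None of 10 endothelial markers passed, 4 of them were not above background, and their sum was 253 to 273 in control and 269 to 274 in long-term EMT cells. None of 8 adipocyte markers passed, 3 were not above background, and their sum was 370 to 539 and 335 to 356. For striated muscle, the cell type of Cav3 and Cavin4, none of 14 markers passed, 4 were not above background and the sum was 525 to 635 against 649 to 734. Among them, Myod1 (means 4.24 and 4.26) and Myh1 (4.11 and 4.10) lay below background in both groups, and Acta1 was at 6.63 and 7.29. None of 8 smooth muscle markers passed, 2 were not above background, and their sum was 1810 to 2270 against 2570 to 2910. Of these, Cnn1 was below background, Tagln was higher on every long-term EMT array (means 5.17 and 5.93, log2 fold change 0.76, limma adjusted p = 0.0895), and Acta2 was at 1.52, or 0.53 without control array 1. None of 9 fibroblast markers passed (2 not above background, sums 1350 to 1920 and 797 to 1030), nor any of 8 macrophage markers (3 not above background, sums 911 to 2350 and 863 to 1400). The epithelial sum was 18500 to 24800 in control and 14400 to 15800 in long-term EMT cells. The sums of epithelium, fibroblasts and adipocytes did not overlap between the groups and were lower in long-term EMT cells. Those of both muscle lists did not overlap either and were higher in long-term EMT cells. A sum of linear signals is weighted toward the brightest genes, so that it does not show that a whole list moved. Acta2, which also enters the smooth muscle sum, read 6.22, 8.56 and 9.81 on the control arrays, lowest on control array 1. On the long-term EMT arrays it read 9.61, 9.73 and 9.81. The brightest were Lipe (means 7.95 and 7.49) among adipocyte markers, Smtn (10.38 and 10.65) among smooth muscle markers, and Krt8 and Krt18 among epithelial markers. The part of these differences in the member values was not tested.

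Finally, the genes whose values followed each member most closely over the 6 arrays were listed, among genes above background and by Pearson's r as a description. The arrays share the 2 groups and 1 normalization, so that any gene that differs between the groups can correlate highly. Cav1 was followed by Fbxo7 (r = 0.999), Dab2 (0.995) and Slc43a3 (0.994), and Cav2 by Nme3 (0.998), Traf5 (0.997) and Ldhd (0.992). Dab2 is also on the list of TGF-β receptor turnover, where it fell. Cavin1 was followed by Cplane2 (0.991), Pard6b (0.989) and Hdac7 (0.988), and Cavin2 by Akirin2 (0.989), Wdsub1 (0.986) and Ebp (0.986). Cavin3, whose groups overlapped, had Rufy2 (0.997) ahead of Med30 (0.965) and Bpgm (0.963). Cavin4 was followed by Galnt1 (0.998), Sfxn5 (0.997) and Skap1 (0.997). No caveolin or cavin could appear in these lists, since members were left out of them.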

How the data were processed

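RNA from 3 control and 3 long-term EMT samples (150 ng each) was hybridised to 1 array per sample. The authors normalized the arrays by RMA (Robust Multi-array Average), run in Affymetrix Expression Console (version not given in the sources used here), and deposited log2 values with 2 decimals for 35556 probe sets. This method gives every array nearly the same distribution of values and compresses differences near background, so that folds of dim genes such as Cavin4 may be too small. The deposited log2 values were used without further normalization. Symbols came from the platform annotation, where 21218 probe sets have 1 symbol, 1881 have several and 12457 have none. Where a gene had more than 1 probe set, that of highest mean was read, and those with more than 1 symbol were not used to name genes. Listed genes without a probe set of their own were not analysed here.

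Groups were taken from the sample titles and compared with lmFit and eBayes of limma 3.58.1 in R 4.3.3 on all probe sets, without a block, with Benjamini-Hochberg adjustment over all of them. The code was tested on simulated data. Named genes were the 7 members, list genes that passed or had the highest or lowest change of their list, the nearest protein-coding neighbours, and the 3 genes most like each member above background. A few further list genes were named after their values were seen. The members and lists were chosen with earlier results of these data known. Exact permutation tests used scipy 1.17.1. Alternatives were the t-test that the methods name, a trended robust variance prior, no fold threshold, a further quantile normalization, removal of dim probe sets, arrays set to 1 median, a replicate block, the mean of all probe sets of a gene, and each array left out. The number of arrays limits the precision.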

Additional observations from a re-analysis of the deposited data

How the results depend on the processing

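No direction of a called member or list gene reversed under any alternative run. With the methods' t-test at its unadjusted threshold, Cav2 (-0.59) also passed, so that 2 members fell, 688 probe sets fell and 638 rose (330 and 353 in limma), and 2 list genes rose in place of 1. After Benjamini-Hochberg adjustment of that t-test, neither Cav1 (-0.84) nor Cavin4 (1.01) passed, so that 0 members fell and 0 rose, 26 probe sets fell and 43 rose, and 1 list gene fell and 0 rose. Without a fold threshold 4 list genes rose. Deviations from the group mean correlated at 0.188, 0.0203 and 0.249 between samples of the same replicate number. Between samples of different numbers the correlations ran from -0.267 to 0.142. These values do not settle whether the numbers pair the samples, and the main comparison has no block. With the replicate block, 0 list genes rose and 7 fell, while Cav1 (adjusted p = 0.0465) and Cavin4 (adjusted p = 0.0465) still passed in limma. With 1 array left out, the log2 fold changes ran from -0.92 to -0.77 for Cav1, from -0.84 to -0.51 for Cavin2 (past the threshold without control array 1 alone) and from 0.92 to 1.08 for Cavin4. The counts then ran from 0 to 2 for members that fell, 0 to 1 for members that rose, 98 to 482 for probe sets that fell, 107 to 472 for probe sets that rose, 2 to 11 for list genes that fell and 0 to 1 for list genes that rose. The fewest probe sets passed without long-term EMT array 2. Over all alternatives, 95 of the member values kept their side of the threshold, 7 fell below it and 2 moved past it, and of the values of the 10 list genes that passed with all arrays, 107 kept it and 43 fell below it. Other list genes moved past it, as Abca1, Ror1 and Tgfbr1 did without control array 1. Signal close to background limits Cav3, for which no fold was given, and the control values of Cavin4.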
